A study of Mus musculus with 2 samples.

Results

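The conjugating transferases of the mouse liver were described here upon fasting and upon feeding, in 3 families that make foreign and endogenous compounds more soluble: the glutathione S-transferases (GST), the UDP-glucuronosyltransferases (UGT) and the sulfotransferases (SULT). A probe was taken as a member when its RefSeq transcript belonged to a gene whose symbol begins with Gst and a lower-case letter, with Ugt1, Ugt2 or Ugt3, or with Sult and a digit. This gave 77 of 39402 probes on the array, which stood for 56 of 20652 genes named: 34 probes of 22 GST genes, 18 probes of 14 UGT genes and 25 probes of 20 SULT genes. A further 12 genes of the reference table have matching symbols and no probe matched to them here: Gsta1, Ugt1a1, Ugt1a2, Ugt1a5, Ugt1a7c, Ugt1a8, Ugt1a9, Ugt2a2, Sult2a5 and the pseudogenes Gstm2-ps1, Gstp-ps and Sult2a-ps2.

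Total RNA of the livers of 3 male mice per group was pooled, labelled with Cy3 and hybridised to 1 Agilent whole-genome oligonucleotide array per group, with both arrays on the same slide. The fasting mice had been without food for 16 h by one label and for 14 to 16 h overnight by another, and the feeding mice are described both as fed ad libitum and as given food after such a fast. Neither group is labelled with a drug or a genetic change. The study's methods describe its mice in general as male C57BL/6J of about 8 to 12 weeks. With 1 array per group there was no replicate and so no test of any difference between the groups, and the number of arrays limits the precision. The mice within a pool cannot be told apart.

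Conjugation is the second phase of detoxification. GST enzymes couple electrophiles to glutathione, UGT enzymes of the endoplasmic reticulum attach glucuronic acid from UDP-glucuronate to bilirubin, steroids, bile acids and drugs, and SULT enzymes of the cytosol attach sulfate from the donor PAPS (3′-phosphoadenosine 5′-phosphosulfate) to phenols, estrogens and hydroxysteroids including bile acids. The hepatocyte is the main site of all these reactions, and the receptors CAR, PXR, AHR and PPARα and the factor NRF2 are known to act on members of the families.

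No gene of the 3 families differed between feeding and fasting by 2-fold when each gene was read by its brightest probe after quantile normalization, while Sult1e1 was past it when the arrays were scaled by their median (1.02). Of the 56 genes, 46 were well above background on both arrays. A further 4, Gsto2, Sult2b1, Sult3a1 and Sult3a2, were so upon feeding only, and 6, Gstt4, Ugt1a6a, Sult1c1, Sult2a3, Sult6b1 and Sult6b2, were not well above background on either. Among all genes well above background on at least 1 array, 7.91% (1293 of 16346) were past 2-fold, against 0 of 50 member genes. By direction, 3.29% of all genes were higher upon feeding and 4.62% lower. These 16346 genes were also split evenly by signal into a dim, a middle and a bright group. The bright group held 34 of the 46 member genes, and 5.80% of its 5449 genes were past 2-fold. Past 1.5-fold were 6 of 50 member genes, where 21.1% of all genes and 17.3% of the bright group were. Of these 6, 3 were higher and 3 lower upon feeding, where 10.5% and 10.6% of all genes were. The signal is the background-subtracted intensity after quantile normalization between both arrays, and a difference is given as log2 of feeding minus fasting.

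**Figure D1:**
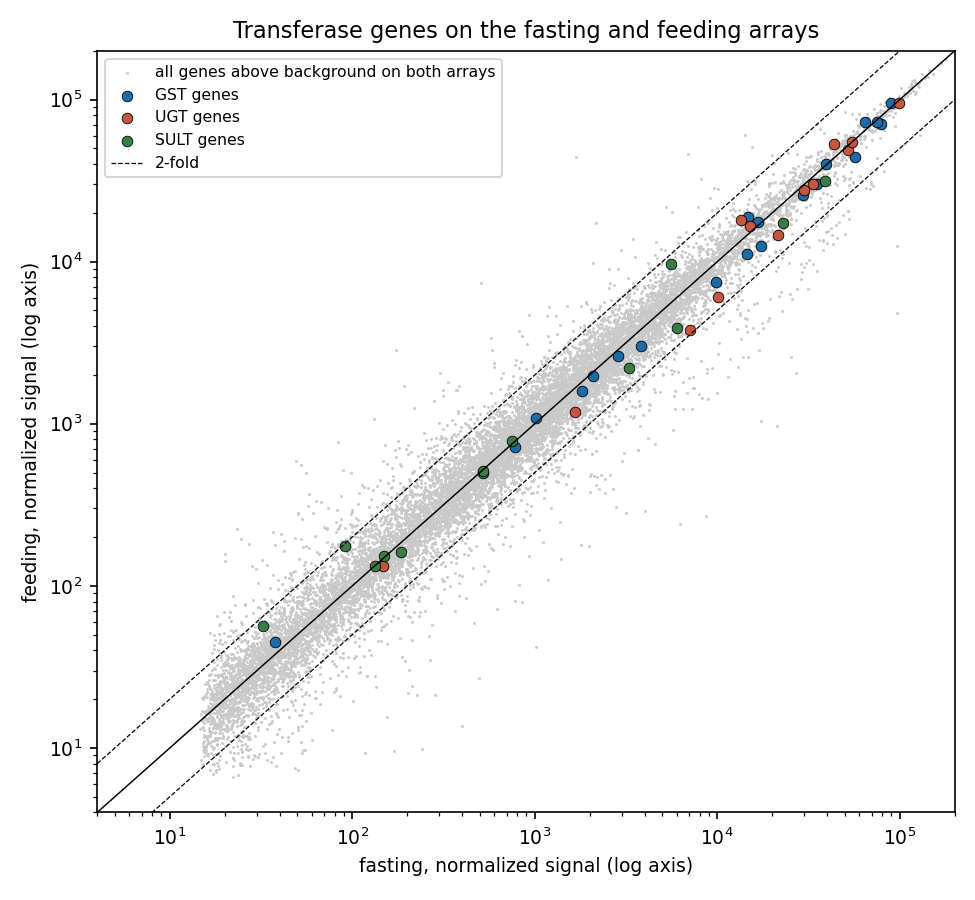
Normalized signal of every gene well above background on both arrays, upon fasting (x axis) and upon feeding (y axis), both on log axes. Grey points are all 14515 such genes, coloured points are the 20 GST, 13 UGT and 13 SULT genes, and all 46 coloured points lie between the dashed lines that mark a 2-fold difference.

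The median absolute difference was 0.18 on the log2 scale over the 46 genes, 0.28 over all genes and 0.25 over the bright group. By family it was 0.18 for GST and 0.16 for UGT genes, below both, and 0.30 for SULT genes, above both. For each spot the scanner software estimated an error of the signal, which amounts to 0.20 on the log2 scale for the difference of a bright probe between both arrays. By their own such error, 24 of 46 member genes (52.2%) differed by no more than it, against 39.9% of all genes and 42.0% of the bright group. Probes that were spotted several times on the same array gave an SD of the difference of 0.095 in the bright group, 0.14 in the middle and 0.44 in the dim one. By 2 times that SD, 20 of 46 member genes (43.5%) differed, beside 45.6% of all genes and 60.4% of the bright group. Both errors cover the measurement on the array and not the variation between mice.

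**Figure D2:**
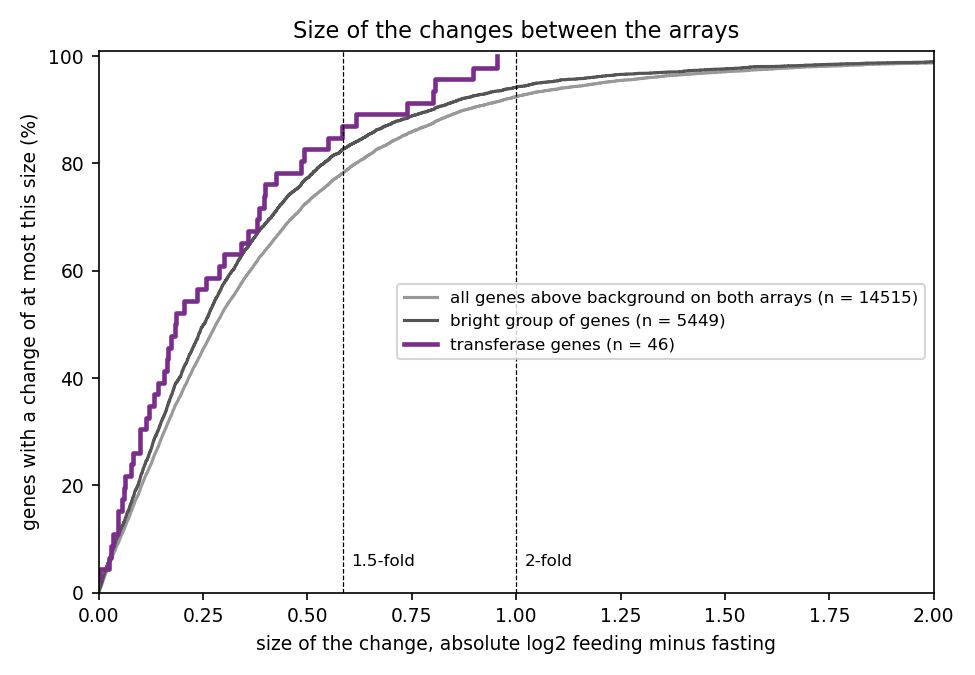
Percentage of genes (y axis) whose absolute log2 difference between feeding and fasting is at most the value on the x axis, for the 46 transferase genes, the bright group (5449) and all 14515 genes above background on both arrays. The curve of the transferases reaches 100% below the dashed line at 2-fold, and the x axis ends at 2, past which a few of the other genes lie.

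Of the 46 genes, 29 were lower (63.0%) and 16 were higher upon feeding, and 1, Ugt2b5, was at 54443 on both arrays. Among all genes well above background on both arrays, 50.1% were lower. The median difference was -0.12 for GST and -0.12 for UGT genes, and that of the SULT genes, with the bound of Sult2b1, was -0.01, where the median of all genes was 0.01 counted the same way. These directions depended on the scaling. With each array scaled by its median, 17 member genes were lower and 29 higher, where 38.9% of all genes were lower. The median of all genes well above background on both arrays then stood at 0.12, where it was -0.001 after quantile normalization. The medians were 0.04 for GST and 0.06 for UGT. Under either scaling the GST and UGT medians lay below that of all genes, and the range within each family was wider than the distance between the families. It ran from -0.49 to 0.36 for GST, from -0.90 to 0.43 for UGT and from -0.62 to 0.95 for SULT.

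**Figure D3:**
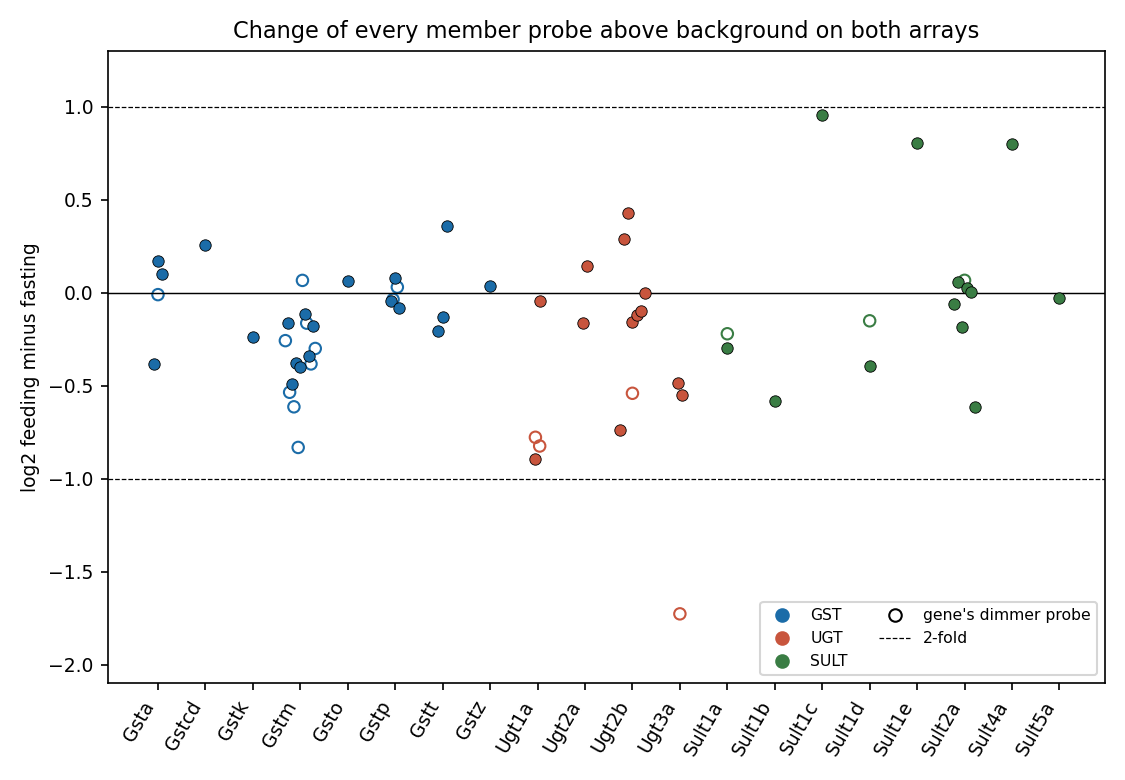
Log2 difference between feeding and fasting (y axis) of each member probe well above background on both arrays, by subfamily (x axis). Filled points are the brightest probe of a gene, open points its other probes, and dashed lines mark 2-fold. The 7 filled Gstm points lie below 0, and 1 open Ugt3a point lies below the lower dashed line at -1.73.

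Promoter sequence was read for the members to set the differences beside the letters before each gene's start. A window of 250 bases before to 50 after the start (RefSeq, build GRCm38.p6) was at hand for 57 of the 68 genes with matching symbols, 48 of them on the array. TGACNNNGC, the core of the antioxidant response element bound by NRF2, was found on either strand in Gsta3, Gstm5 and Gstm7, which is 5.26% of member genes beside 14.0% of all 27025 genes with a window. The 250 bases before the start of these 3 genes are printed with the match in capitals, to show its place in GST genes whose signals are given further on. For Gstm7 the table holds 2 starts, and the one with the match in its window is shown and used for its position. Whether this Gstm7 stretch reaches into coding sequence was not checked. They are followed by those of Sult1e1 and Sult1c2, the SULT genes with the largest positive differences, which hold none of the motifs searched in this stretch.
Gsta3 (chr1:21240335-21240584, plus strand): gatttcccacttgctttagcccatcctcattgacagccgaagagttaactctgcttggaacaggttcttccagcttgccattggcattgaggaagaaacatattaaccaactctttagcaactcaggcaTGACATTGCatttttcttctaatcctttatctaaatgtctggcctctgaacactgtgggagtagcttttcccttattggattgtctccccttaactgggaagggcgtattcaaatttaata
Gstm5 (chr3:107895604-107895853, plus strand): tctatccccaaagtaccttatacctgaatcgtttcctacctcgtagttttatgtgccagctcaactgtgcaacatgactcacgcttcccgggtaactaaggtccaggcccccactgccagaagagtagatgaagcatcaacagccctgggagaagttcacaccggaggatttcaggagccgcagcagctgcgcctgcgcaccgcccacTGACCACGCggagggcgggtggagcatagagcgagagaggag
Gstm7 (chr3:107931615-107931864, minus strand): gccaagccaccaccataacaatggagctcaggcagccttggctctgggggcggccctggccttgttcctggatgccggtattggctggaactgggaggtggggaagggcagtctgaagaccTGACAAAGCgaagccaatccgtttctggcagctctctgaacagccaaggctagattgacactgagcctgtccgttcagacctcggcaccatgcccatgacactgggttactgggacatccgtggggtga
Sult1e1 (chr5:87591612-87591861, minus strand): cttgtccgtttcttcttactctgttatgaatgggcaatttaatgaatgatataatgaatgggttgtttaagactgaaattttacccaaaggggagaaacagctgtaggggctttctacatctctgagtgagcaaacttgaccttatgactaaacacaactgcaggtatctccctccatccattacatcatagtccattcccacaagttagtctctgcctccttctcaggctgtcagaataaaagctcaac
Sult1c2 (chr17:53845959-53846208, minus strand): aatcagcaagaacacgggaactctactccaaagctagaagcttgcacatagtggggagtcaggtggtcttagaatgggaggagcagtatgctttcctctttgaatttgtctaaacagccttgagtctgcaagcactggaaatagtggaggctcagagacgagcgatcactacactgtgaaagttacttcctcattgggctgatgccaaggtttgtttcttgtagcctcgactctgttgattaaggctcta

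Counted from the start, the match ends at position -113 in Gsta3, -34 in Gstm5 and -121 in Gstm7. The Gstm7 start used lies after the ATG named above, so its position may not compare with those of Gsta3 and Gstm5. The 3 genes did not differ alike between the arrays: the log2 difference was 0.17 for Gsta3, -0.11 for Gstm5 and -0.18 for Gstm7. The other motifs were searched in the same way on both strands. GCGTG, the core of the element bound by AHR, was in 12 member genes (21.1%) beside 35.2% of all genes, and GTAAACA, the forkhead core, was in 5 (8.77%) beside 4.05%. The direct repeats of AGGTCA with 1 base between, known to bind HNF4A or PPARα, and of AGTTCA with 4 bases between, known to bind CAR or PXR, were in 0 member genes each and in 0.0481% and 0.0148% of all genes. TGACNNNGC and GCGTG overlap in Gstm5. A match of letters is a description and not a site.

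Among the GST genes the mu class, Gstm, stood apart in its direction. Mu class enzymes conjugate epoxides and aromatic electrophiles, and their genes lie side by side on chromosome 3 of the mouse. All 7 measured genes were lower upon feeding, from -0.49 to -0.11 with a median of -0.34, although Gstm5 and Gstm7 stood at 0.01 each when the arrays were scaled by their median. None reached 1.5-fold by its brightest probe.

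Gstm2 was read by 3 probes, whose signals were 17443 upon fasting and 12409 upon feeding, 7225 and 4982, and 1922 and 1255. The differences of these 3 probes, -0.49, -0.54 and -0.61, pointed the same way and lay within 0.13 of each other. Gstm3 was at 57112 upon fasting and 43901 upon feeding by its brighter probe (-0.38) and at 20852 and 11707 by its dimmer one (-0.83). Both Gstm3 probes were lower upon feeding, and the dimmer was past 1.5-fold, as was the dimmest Gstm2 probe (1.53-fold lower).

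Gstm4 was at 9803 upon fasting and 7439 upon feeding by its brighter probe (-0.40). Its dimmer probe, at 784 and 820, did not share this direction (0.07). Gstm6 was at 3798 and 2999.9 by its brightest probe (-0.34), with -0.16 and -0.38 by its others, and Gstm1, an abundant mu class enzyme of the liver, was at 79354 and 70755 (-0.17), with -0.26 by its other probe. Gstm5 was at 783 upon fasting and 723 upon feeding (-0.11).

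For Gstm7 the array carries 10 spots of the brighter probe, which gives the only direct view of the measurement error within this class. Upon fasting the spots ran from 1678 to 1889 with a mean of 1812 ± 65.5 (SD, 10 spots), and upon feeding from 1489 to 1679.96 with a mean of 1598 ± 67.7 (SD, 10 spots). The highest spot upon feeding and the lowest upon fasting met, and the difference of the log2 means was -0.18, with -0.30 by the other probe. Mu class transcripts resemble each other closely, and a probe can pick up more than 1 of them, so the 7 genes are not 7 separate measurements.

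The alpha class, Gsta, known for conjugating products of lipid peroxidation, did not share a direction. Gsta2 was at 14594 upon fasting and 11183 upon feeding (-0.38). Gsta3 was at 64795 and 73011 by its brighter probe (0.17) and at 27553 and 27339 by the other (-0.01). Gsta4, whose enzyme is known for the aldehyde 4-hydroxynonenal, was at 1018 ± 48.8 (SD, 10 spots) upon fasting and 1091 ± 48.6 (SD, 9 spots) upon feeding, with spots that overlapped and a difference of 0.10.

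The pi class genes showed the smallest spread. Gstp1 was at 75089 upon fasting and 72724 upon feeding (-0.05), Gstp2 at 90023 and 95055 (0.08) and Gstp3 at 2090 and 1974 (-0.08). All differences were below the error of a bright probe, and Gstp1 and Gstp2 are near-identical copies that these probes may not tell apart. In the theta class, which acts on small halogenated compounds, Gstt3 had the highest difference of the GST genes, from 14689 upon fasting to 18827 upon feeding (0.36), where Gstt1 was at 29576 and 25661 (-0.20) and Gstt2 at 2871 and 2619 (-0.13). With scaling by the median Gstt1 stood at 0.0006 and Gstt2 at 0.06, so neither was lower.

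The remaining GST subfamilies each had 1 gene well above background on both arrays. Gstk1, of mitochondria and peroxisomes, was at 35387 upon fasting and 30037 upon feeding (-0.24). Gsto1, of the omega class, was at 16741 and 17489 (0.06). Gstz1, which acts in tyrosine breakdown as maleylacetoacetate isomerase, was at 39180 and 40148 (0.04). Gstcd, which carries a GST-like domain, was dim, at 37.7 and 45.0 (0.26), where the SD between spots is 0.44. Gsto2 was well above background upon feeding only, at 12.5, although its signal upon fasting was 13.6. No fold was computed, since its signal upon feeding did not exceed the bound.

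The UGT genes held the largest negative differences of the 3 families. Ugt1a10 was at 7044 upon fasting and 3782 upon feeding (-0.90, 1.86-fold lower), and its dimmer probe was at 264 and 154 (-0.78). Ugt2b1, an abundant androgen and drug glucuronosyltransferase of rodent liver, was at 10061 upon fasting and 6028 upon feeding (-0.74, 1.67-fold lower). These were the 2 UGT genes past 1.5-fold, which is 15.4% of 13 beside 21.1% of all genes. With scaling by the median Ugt2b1 was at -0.52, which is not past 1.5-fold. Ugt2b35 was past 1.5-fold with that scaling (0.65), and Ugt3a2 with a normexp background correction (-0.60). The differences of Ugt1a10 and Ugt2b1 were over 7 times the SD between bright spots (9.44 and 7.78 times).

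The Ugt1a genes are known to be made from separate first exons joined to the same last exons, so a probe in the common part reads all of them, and where each probe lies was not given in the sources used here. Ugt1a6b was at 98939 upon fasting and 95802 upon feeding by its brightest probe (-0.05), while its dimmer probe was at 3390 and 1913 (-0.83). The dimmer Ugt1a6b probe thus lay beside both Ugt1a10 probes, and 3 of the 4 Ugt1a probes well above background had differences between -0.90 and -0.78. Ugt1a1, the bilirubin glucuronosyltransferase, had no probe matched to it, and Ugt1a6a was not well above background.

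The Ugt2b genes lie together on chromosome 5 and handle steroids, fatty acids and bile acids. Among the 7 measured genes, 4 were lower, 2 were higher and 1 was equal. Ugt2b35 was at 13485 upon fasting and 18115 upon feeding by its brighter probe (0.43), the highest difference of the UGT genes. Its dimmer probe, at 1331 and 914, pointed the other way (-0.54).

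Ugt2b34 was at 43378 upon fasting and 52946 upon feeding (0.29). The other 3, Ugt2b36, Ugt2b37 and Ugt2b38, ran from -0.16 to -0.10 at signals of 27580 to 52201, and their sign turned with scaling by the median. In the Ugt2a subfamily Ugt2a3, known in liver and intestine, was at 15115 and 16665 (0.14), and Ugt2a1, known from the olfactory epithelium, was at 148 and 132 (-0.16).

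Ugt3a enzymes are known to use sugars other than glucuronic acid. Ugt3a2 was at 21485 upon fasting and 14689 upon feeding by its brighter probe (-0.55) and at 1812 and 547 by its dimmer one (-1.73, 3.31-fold lower). This was the only member probe past 2-fold, 1 of 69 (1.45%), beside 7.93% of the 21065 probes of all genes counted so, 4.83% of them lower. Ugt3a1 was at 1660 and 1187 (-0.48). All 3 Ugt3a probes were lower upon feeding. The mean of both Ugt3a2 probes was past 2-fold, so the count of UGT genes past it was 1 with that reading.

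**Figure D4:**
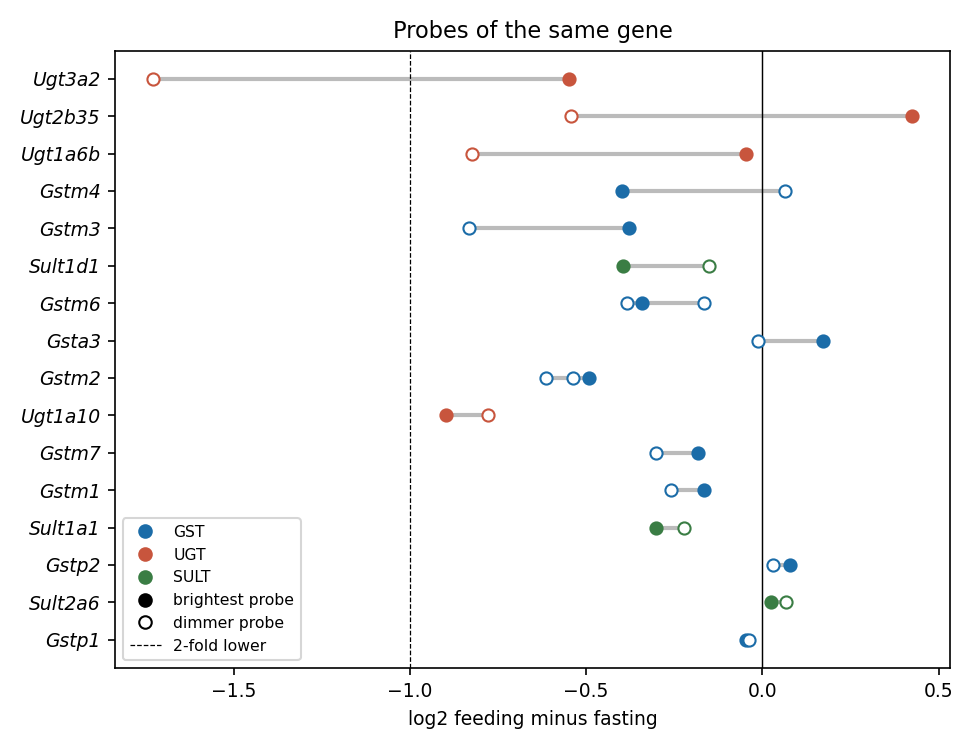
Log2 difference between feeding and fasting (x axis) of each probe of the 16 member genes with several probes well above background on both arrays, 1 gene per row. Filled points are the brightest probe, open points the others, and the grey bar joins them. The probes of Ugt3a2 lie farthest apart, and those of Ugt2b35, Gstm4 and Gsta3 lie on both sides of 0.

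Among these 16 genes the probes of a gene differed by a median of 0.15, beside 0.25 over the 3468 genes with several such probes. The distance was over 1 in 1 of 16, Ugt3a2 (6.25%), beside 8.07% of all such genes. Probes lay on both sides of 0 in 3 of 16 member genes, Ugt2b35, Gstm4 and Gsta3, and in 1025 of the 3468.

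The SULT genes held the largest positive differences. Sult1e1, the estrogen sulfotransferase, was at 5544 upon fasting and 9695 upon feeding (0.81, 1.75-fold higher), 8.49 times the SD between bright spots, and with scaling by the median it was past 2-fold. Sult1c2, a sulfotransferase of phenols, was at 90.7 and 175.5 (0.95, 1.94-fold higher), and a normexp background correction brought this to 0.47. Sult4a1, known from the brain, was at 32.3 and 56.3 (0.80) at a signal where the SD between spots is 0.44, and it was at 0.25 with the normexp correction, at 0.05 by the mean of its probes and at 0.58 with no scaling, none of them past 1.5-fold. Of these 3, only Sult1e1 was read by a bright probe.

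Sult2a8 was at 5993 upon fasting and 3913 upon feeding (-0.62, 1.53-fold lower), and was the SULT gene past 1.5-fold in the negative direction, which was lost with scaling by the median (-0.40) or by the 75th percentile (-0.53). Its enzyme is known for sulfating bile acids in mouse liver. With Sult1e1, Sult1c2 and Sult4a1 this made 4 of 16 SULT genes past 1.5-fold (25.0%), beside 21.1% of all genes.

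Several enzymes of the Sult1 group were lower upon feeding, none of them past 1.5-fold after quantile normalization. Sult1b1, which sulfates thyroid hormones among other phenols, was at 3291 and 2196 (-0.58). It was past 1.5-fold with the normexp correction (-0.61) and with no scaling (-0.63). Sult1d1, which acts on catecholamines, was at 22840 and 17352 by its brighter probe (-0.40) and at -0.15 by the other. Sult1a1, the main phenol sulfotransferase, was at 38708 and 31426 (-0.30), with -0.22 by its other probe.

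The Sult2a genes, hydroxysteroid and bile acid sulfotransferases that lie together on chromosome 7, were near 0 apart from Sult2a8. Sult2a1 was at 518 upon fasting and 497 upon feeding (-0.06), Sult2a2 at 748 and 778 (0.06) and Sult2a4 at 184 and 162 (-0.19). Sult2a6 was at 149 and 152 (0.03) and Sult2a7 at 132.8 and 133.1 (0.00). Several Sult2a genes are known to be expressed far more in female than in male mouse liver, and both pools were of males. Because these copies resemble each other, a probe may read more than 1 of them.

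Sult5a1 was at 521 upon fasting and 511 upon feeding (-0.03). Sult2b1, the cholesterol sulfotransferase of skin, was well above background upon feeding only, at 15.5 against 7.90 upon fasting, which gave at least 1.07-fold higher against the lowest signal that is well above background. Sult3a1 and Sult3a2, also known as female-predominant, were well above background upon feeding only, at 8.65 and 7.98, and gave no fold against that bound. Such dim probes bear on the arrays as much as on the genes, since 63.1% of transcript spots were well above background on the fasting array and 72.3% on the feeding array.

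Genes that supply, remove or export the conjugates were counted in lists drawn from general knowledge. Of the 6 membrane glutathione transferases and their relatives (Mgst1 to Mgst3, Ptges, Ltc4s and Alox5ap), 0 were past 2-fold, 5 were lower and 1 was higher, with a median of -0.36. Alox5ap, the 5-lipoxygenase activating protein of leukocytes, had the largest difference, from 1083 upon fasting to 763 upon feeding (-0.51).

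For the supply and reduction of glutathione, 17 of 18 genes were measured and 2 were past 2-fold, both lower upon feeding, with a median of -0.08. Chac1, which degrades glutathione and is known as a target of the amino acid response, fell from 2310 to 482 (-2.26). Slc7a11, the cystine carrier, fell from 25.8 to 11.8 (-1.13) at a dim signal, and this call was lost with the normexp correction (-0.067). Neither is an enzyme of glutathione synthesis. Gclc, the catalytic subunit of the first and limiting step, chosen for its role after its value was seen, was at 8155 and 9213 (0.18).

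For the supply of UDP-glucuronate, 1 of 8 genes was past 2-fold and the median was 0.17. Slc35b1, which rose from 7808 to 15873 (1.02), is listed with the nucleotide sugar carriers and is known as an ATP/ADP exchanger of the endoplasmic reticulum. With no scaling it was just under 2-fold (0.998). Ugdh, the enzyme that makes UDP-glucuronate, also named for its role, was at 19309 and 22127 (0.20). For PAPS and sulfate, 10 of 12 symbols were measured, the list naming Bpnt2 also by its older symbol Impad1, and 1 was past 2-fold, with a median of 0.06. Slc26a2, a sulfate carrier, rose from 54.9 to 120 (1.13), and this call was lost with the normexp correction (0.51) and with no scaling (0.92).

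In neither of the remaining steps was a gene past 2-fold. Of 11 genes for deconjugation and hydrolysis 10 were measured, with a median of -0.21, and the largest difference was that of Ces1g, a carboxylesterase, from 8111 to 4902 (-0.73). Of 10 exporters, with a median of -0.16, the largest difference was that of Abcc3, which carries glucuronides across the basolateral membrane, from 16801 to 10057 (-0.74).

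**Figure D5:**
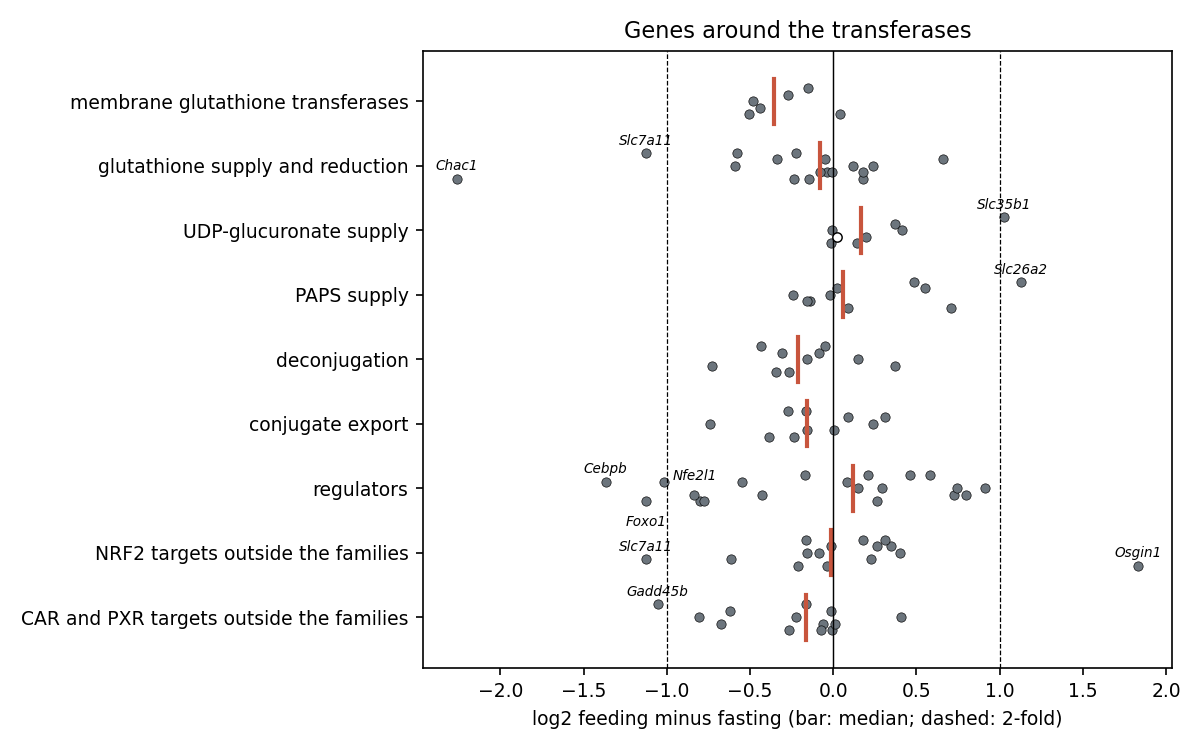
Log2 difference between feeding and fasting (x axis) of the genes of 9 lists, 1 list per row. Points are genes above background on both arrays, the open point in the UDP-glucuronate row is a bound, red bars are the median of a list, and dashed lines mark 2-fold. The genes past 2-fold carry their symbols, and all lists have their median between -0.36 and 0.17.

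Of 20 known regulators of the families, 3 were past 2-fold, all lower upon feeding, and the median was 0.12. Cebpb, a factor of the acute phase and of gluconeogenesis, fell from 39404 to 15272 (-1.37), Foxo1, the forkhead factor that insulin restrains, from 5967 to 2738 (-1.12), and Nfe2l1, a relative of NRF2, from 109 to 53.7 (-1.02). The calls of Foxo1 (-0.92) and Nfe2l1 (-0.99) were lost with scaling by the median, and that of Nfe2l1 also with the normexp correction (-0.38). NRF2 and the xenobiotic receptors, taken up after their values were seen, were not past 2-fold: Nfe2l2, which encodes NRF2, was at 11145 and 18665 (0.74), Nr1i3 (CAR) at 2340 and 3875 (0.73), Nr1i2 (PXR) at 2080 and 1191 (-0.80), Ppara at 9941 and 5803 (-0.78) and Ahr at 5311 and 5892 (0.15). Transcript levels say nothing of the activity of a factor.

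Targets of these factors outside the 3 families were read as well. Of 15 NRF2 targets 1 was past 2-fold in each direction, with a median of -0.01: Osgin1, an oxidative stress gene, rose from 2538 to 9025 (1.83), and Slc7a11 fell as given. Of 13 targets of CAR and PXR, 11 were lower and 2 were higher, with a median of -0.16, and 1 was past 2-fold. Several of those lower were near 0, such as Cyp3a11 (-0.01), Cyp2c55 (-0.01) and Cyp3a13 (-0.06). Gadd45b, a stress-induced gene, fell from 824 to 396 (-1.06), a call lost with scaling by the median (-0.95) and with the normexp correction (-0.82). The share past 2-fold over all genes, 7.91%, stands beside each of these counts. Beside the counts of lower genes, in these lists and in the cell markers that follow, stands 50.1% of all genes well above background on both arrays. The counts of lower genes in the lists were not run with other scalings, and scaling by the median turned the sign of several member genes.

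Markers of the cells of the liver were set beside these values, since in a bulk sample fewer cells of a type and less RNA per cell cannot be told apart. All 10 hepatocyte markers were well above background on both arrays and 0 were past 2-fold, with a median of -0.05 and a largest difference of -0.97 for Tat, which was past 2-fold with the normexp correction (-1.02) and with no scaling (-1.04). Of the leukocyte and Kupffer cell markers 9 of 10 were measured, 7 were lower, with a median of -0.41 and a summed level lower by 0.55 on the log2 scale, and 1 was past 2-fold, Itgam, which rose from 286 to 812 (2.83-fold) by its brightest probe and had a log2 difference of 0.31 by the mean of its probes. The stellate and endothelial cell markers had a median of -0.35 and a summed level lower by 0.37, with 8 of 9 lower and 1 past 2-fold, Pecam1, which fell from 470 to 229 (-1.04) and was not past it with scaling by the median (-0.98) or the normexp correction (-0.79). The 8 cholangiocyte markers had a median of -0.07. Of the 7 well above background on both arrays, 4 were lower and 3 higher, and Krt7 was so upon feeding only. Their summed level was higher by 0.27 on the log2 scale. This rise of the sum came from Sox9, which rose from 377 to 1625 (2.11). Spp1, the marker of highest signal among them, fell from 2303 to 1671 (-0.46). The markers of intestine and pancreas included Prss2, at least 2.59-fold higher upon feeding, and Alpi, at least 2.31-fold lower, both well above background on 1 array only, with 2 of 10 dim on both. Neither was past 2-fold with the normexp correction (0.42 and -0.15). Of 6 kidney markers 2 were dim on both arrays and 2 were above background on both, and of these the larger difference was that of Slc22a6 (0.51). The part of these other cells in the values of the transferases was not tested.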

How the data were processed

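The authors pooled liver RNA of 3 mice per group and deposited Agilent Feature Extraction (11.0.1.1) output, with an intensity per spot for raw signal, local background and processed signal after background subtraction, not normalized between arrays. The deposited value table held the local background for 44397 of 44397 spots on both arrays and was not used. Of 43020 transcript spots, 123 upon fasting and 98 upon feeding were outliers and left out. The median processed signal was 61.5 and 52.8, and 0 spots were saturated.

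Spots of the same probe were averaged as log2 processed signal, and both arrays were quantile normalized without the control probes. Genes were assigned by transcript in the RefSeq table of GRCm38.p6, which named 27218 of 39402 probes. The array was designed on an older assembly, and where a probe lies is not given. A probe spotted several times counted as well above background if at least 50% of its spots were. Each gene was read by its brightest probe, the one of highest signal over both arrays, and where that was well above background on 1 array only, the difference was a lower bound against the lowest signal well above background or the dim probe's own, whichever was higher. The dim, middle and bright groups of genes met at signals of 119.9 and 1305. Genes were called at 2-fold, after the study's filter, and the procedure was tested on simulated data. The simulated noise was the spread between replicate spots, without variation between mice. It thus bears on the calculation and not on how far a call would hold in other mice. The rule for the genes named was: members past 2-fold, the 2 with the largest difference in each subfamily, members whose probes differ by over 1, and in each other list at most 3 genes past 2-fold or else the one with the largest difference. Other members were described for completeness. Members, motifs and lists were chosen with earlier results of these data known, and the list of other conjugating enzymes after the members' values were seen. As alternatives, the arrays were scaled by the 75th percentile, by the median or not at all, and there was a normexp correction (offset 50, limma 3.58.1 in R 4.3.3), other readings of probes, bounds and filters, outliers kept, and thresholds of 1.5-fold and 3-fold. Some items of the motif search and of the lists are not reported here.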

Additional observations from a re-analysis of the deposited data

How the results depend on the processing

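Past 2-fold stood 0 GST genes under every alternative run, 1.5-fold included. The SULT genes past the threshold numbered 4 at 1.5-fold, 1 without the bound (Sult3a2, at 1.74 between dim signals) and 1 with scaling by the median (Sult1e1). The UGT genes numbered 2 at 1.5-fold, and 1 with each probe counted by itself, with the mean of a gene's probes and with the probe of the largest change, which was Ugt3a2 each time. Over the 3 families together this gave 3 higher at 1.5-fold, 1 without the bound and 1 with scaling by the median, and 3 lower at 1.5-fold and 1 under each of those 3 readings of probes. All genes past the threshold numbered 1293, and 3451 at 1.5-fold, 469 at 3-fold, 2023 with no filter on dim probes and 527 with the normexp correction. With scaling by the median, the median of the GST genes was 0.039 and that of the UGT genes was 0.062. With no scaling that of the SULT genes, bounds included, was -0.20, where all genes well above background on both arrays stood at -0.12. The named member genes gave 319 values under the alternatives, of which 48 moved by more than the spread between replicate spots, and the other named genes gave 218, of which 24 did. Counting a probe as above background only if over 50% of its spots were, taking the probe of the largest change and leaving out the scaling were chosen after seeing the data. No paired analysis was possible because each group had 1 array, and for the same reason no array could be left out. The value table was not run as an alternative because it holds the local background. Differences of dim probes, such as those of Sult4a1 and Sult1c2, are limited by the signal over background.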

Other observations

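Enzymes that conjugate with other groups, in a list written after the values of the transferases were seen, held 0 of 17 genes past 2-fold, beside 7.91% of all genes. All 17 were well above background on both arrays, 9 were higher and 8 were lower upon feeding. The median was 0.17, beside -0.001 for all genes well above background on both arrays. The list held methyl-, acetyl- and amino acid transferases. Inmt, which methylates indole amines, was at 7363 upon fasting and 12271 upon feeding (0.74). Nnmt, the nicotinamide methyltransferase, was at 8872 and 5936 (-0.58). Baat and Glyat, which conjugate bile acids and acyl groups with amino acids, were at 4257 and 5000.1 (0.23) and at 5285 and 6176 (0.22). Among acetyltransferases, Nat2 was at 1534 and 1906 (0.31). Of these genes only Inmt was named by the rule. In the same list Keg1 (-0.40), Acsm3 (-0.31) and Acsm1 (-0.17) were lower and Acsm5 (0.17) was higher.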
